A study of Arabidopsis thaliana with 8 samples.

Results

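The 71 genes described here were higher in blue light and lower without auxin receptors in Arabidopsis thaliana seedlings. They were chosen from the group means of RPKM (reads scaled to transcript length and to the mapped reads of the library) by 2 limits. The wild type in blue light had to exceed the wild type in darkness at least 2-fold, and the auxin receptor mutant in darkness had to lie at least 2-fold below it, both after 1 RPKM was added to each mean. Of 27416 gene models, 2240 met the first limit and 3189 the second, and the 71 members that met both made up 3.17% of the genes over the blue light limit and 2.23% of those under the receptor limit. For comparison, 1068 models were raised at least 2-fold in both contrasts. The 2 limits share the dark wild type, so its level entered both ratios.

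Cryptochromes are blue light receptors that, once lit, act on transcription factors and on the degradation of light-signalling proteins, and so switch a seedling from growth in darkness to growth in light. TIR1 and its relatives AFB1, AFB2 and AFB3 are F-box proteins that bind auxin and mark Aux/IAA repressors for degradation, which frees auxin response factors to act on their targets. In young seedlings auxin promotes the elongation of the hypocotyl in darkness and the outgrowth of root hairs. Root hairs grow at the tip, and their walls are rich in extensins, hydroxyproline-rich proteins that peroxidases cross-link.

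All 8 libraries held polyadenylated RNA of whole Col-0 seedlings with a growth time of 4.5 days on medium with 1% sucrose. After 3 days in the cold and 12 h of white light, the seedlings spent 4 days in blue light at 15 µmol per m2 per s or in darkness. There were 4 groups of 2 libraries: cry1 cry2-BL, the mutant of both cryptochromes in blue light; WT-BL, the wild type in blue light; tir1 afb123-D, the mutant of all 4 receptors (TIR1, AFB1, AFB2 and AFB3) in darkness; and WT-D, the wild type in darkness. The series asked which genes depend on blue light signalling through the cryptochromes and which on auxin signalling through the receptors. No receptor mutant was measured in blue light and no cryptochrome mutant in darkness. The labels name the mutants by gene, with no allele, and do not tell whether a group's libraries are separate cultures. Each p-value therefore covers only the spread between those libraries, which may be technical.

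The depth was 19.3 to 23.1 M reads per library, as recovered from the deposited values, and the SD within a group, from the median gap between its libraries, was 0.082 to 0.095 on the log2 scale. Of the mutated genes, CRY2 stood at 0.0777% and CRY1 at 72.2% of the wild type level in cry1 cry2-BL. AFB1, AFB2, AFB3 and TIR1 stood at 3.16%, 1.55%, 50.3% and 77.1% of the wild type level in tir1 afb123-D, so RNA of CRY1, TIR1 and AFB3 was still made. In bulk RNA, fewer cells of a type and less RNA per cell cannot be told apart.

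**Figure D1:**
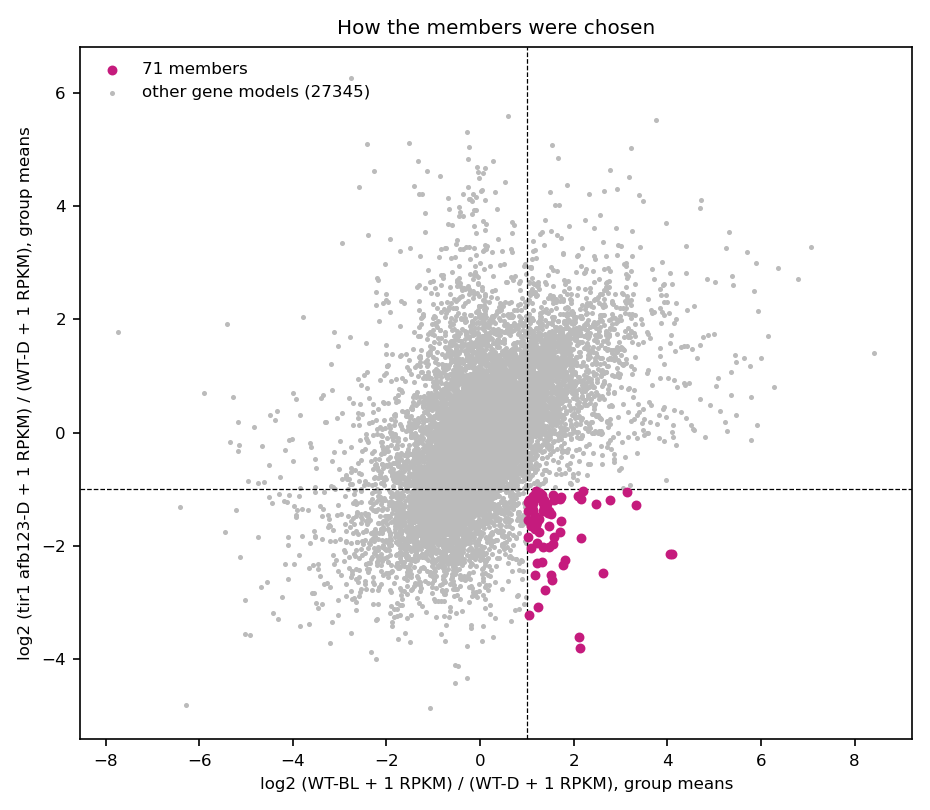
Each of 27416 gene models by its log2 ratio of WT-BL over WT-D (x axis) and of tir1 afb123-D over WT-D (y axis), from group means of RPKM + 1, with the limits of the choice as dashed lines. The 71 members fill the lower right corner, where few models lie, and most of them sit close to the blue light limit.

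By the choice itself, the median member stood 1.35 log2 units higher in WT-BL than in WT-D and 1.46 log2 units lower in tir1 afb123-D than in WT-D (a log2 ratio of -1.46). The extremes were 4.10 for blue light, at the cineole synthase gene AT3G25820, and -3.81 for the receptor mutant, at CYP81F4. These ratios hold the added 1 RPKM, which understates the falls of low genes. AT3G25820 fell from 3.84 RPKM in WT-D to 0.0939 RPKM in tir1 afb123-D, and CYP81F4 from 30.9 to 1.28 RPKM. Groups did not overlap in either contrast for any of the 71 genes. Among all tested genes 40.0% were higher without overlap in WT-BL than in WT-D and 57.0% were lower without overlap in tir1 afb123-D, and 34.0% and 51.4% passed the test in those directions; since the members were chosen on these contrasts, nothing is read from their counts. Mean levels ran between 4.81 and 3203 RPKM in WT-BL, 0.0939 and 672 RPKM in tir1 afb123-D, and 1.62 and 1582 RPKM in WT-D. All 71 passed the filter of 1 RPKM in 2 libraries. In the receptor mutant 21 members were under 1 RPKM in both libraries, and 16 had fewer than 10 reads in at least 1 of them, so their fall there is known less precisely.

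Several members lay near a limit. CCS and AT2G45180 were closest inside the blue light limit of 1, both with a log2 ratio of 1.02, and AT1G23410 and ADF11 were closest outside it, with 0.996 and 0.987. On the receptor side AT5G06630 and ACL were just inside with -1.02 and -1.04, and AT2G23540 and IRT1 just outside with -0.985 and -0.976. ADF11, an actin-depolymerising factor, and IRT1, the root iron transporter, thus missed the choice by little.

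The cry1 cry2 mutant in blue light was not used to choose the members, although its comparisons share the WT-BL or WT-D libraries with the choice. Of the 71 members, 61 were lower in cry1 cry2-BL than in WT-BL, 3 were higher and 7 did not pass the test (limma with Benjamini-Hochberg adjustment over 20044 tested genes, threshold 0.05). Across all tested genes 26.3% were lower and 41.6% higher. At least a 2-fold fall was called for 19 members, or 26.8%, against 7.38% of all tested genes. The members' median log2 fold change was -0.86, against 0.12 for all tested genes. Of the other 2163 tested genes raised at least 2-fold by blue light, 95.1% were lower in cry1 cry2-BL than in WT-BL, 62.0% at least 2-fold, with a median of -1.18. The difference between the members and those genes was not tested, and both sets were chosen for high WT-BL values.

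Most members nevertheless stayed above their dark level in the cryptochrome mutant. Against WT-D, 47 of the 71 (66.2%) were higher in cry1 cry2-BL, 1 was lower and 23 did not pass the test, where 25.1% of all tested genes were higher and 16.5% lower. The other 2163 tested genes raised at least 2-fold by blue light had a similar share, with 64.4% higher than in WT-D and 5.64% lower. The median was 0.52 for the members, 0.39 for the other blue light genes and 0.06 for all tested genes. In combination, 37 members were below WT-BL and above WT-D, 23 were below WT-BL with no call against WT-D, 7 had no call against WT-BL but were above WT-D, 3 were above both, and 1 was below both. As a share of the log2 rise seen in the wild type, the mutant had a median of 38.7%; 25 members had under 25%, 30 had 25 to 75%, and 16 had over 75%.

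**Figure D2:**
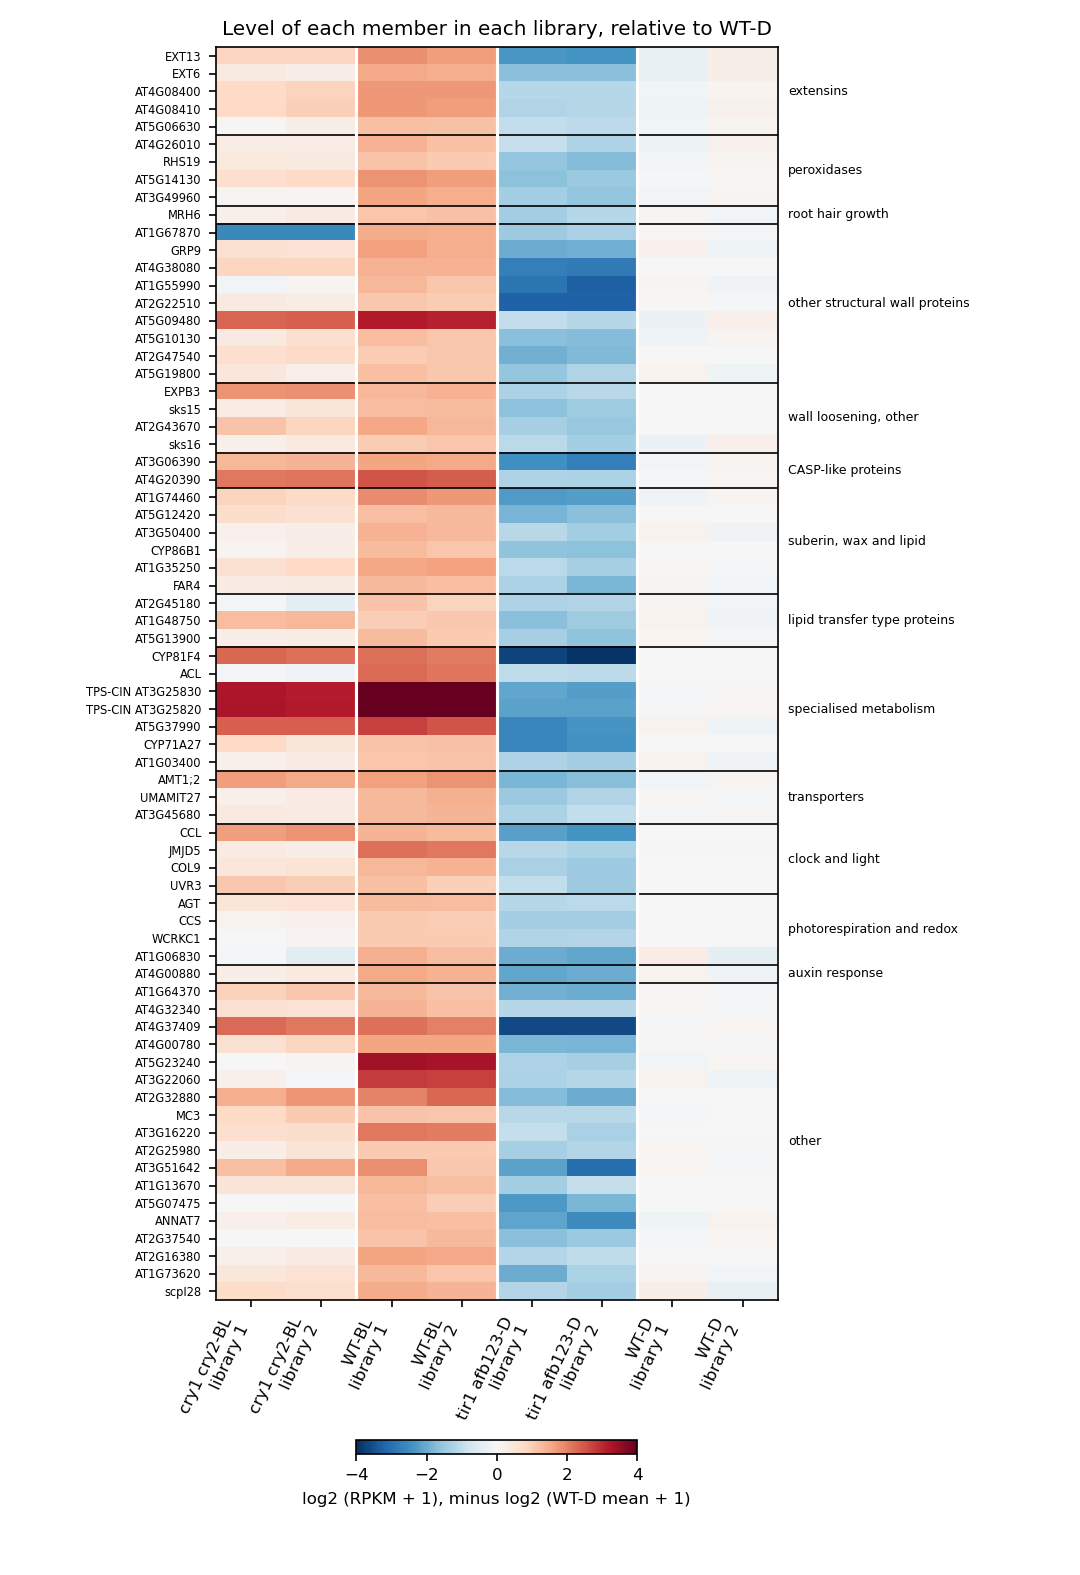
Level of each of the 71 members (rows, grouped by role) in each of the 8 libraries (columns), as log2 of RPKM + 1 minus the log2 of the WT-D mean + 1; red is above and blue below the dark wild type. Blue light and receptor mutant columns are red and blue for all rows by the choice of members, whereas the cry1 cry2-BL columns, which the choice did not use, go from dark red (cineole synthase genes, CYP81F4) to blue (AT1G67870).

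The members' wall genes include extensins and peroxidases. A role with all its genes lower in cry1 cry2-BL than in WT-BL is not set apart by that count. Of all 71 members 85.9% were lower, and of all tested genes 26.3%. All 5 extensin genes were lower in cry1 cry2-BL than in WT-BL, with log2 fold changes between -1.17 and -0.84, and 3 of them were higher than in WT-D. EXT13 had 24.3 and 24.2 RPKM in cry1 cry2-BL, 49.6 and 43.2 RPKM in WT-BL, 1.78 and 1.66 RPKM in tir1 afb123-D, and 10.3 and 15.3 RPKM in WT-D. The cryptochrome mutant lay between WT-BL and WT-D, with no overlap on either side (log2 fold change -0.91 ± 0.136 against WT-BL, standard error, limma adjusted p = 0.00012; 0.89 against WT-D, adjusted p = 0.00035). EXT6 had 17.8 and 16.5 RPKM in cry1 cry2-BL, 40.7 and 38.9 RPKM in WT-BL, 3.63 RPKM in both tir1 afb123-D libraries, and 11.0 and 16.2 RPKM in WT-D. Its fall against WT-BL was larger (-1.17 ± 0.131, limma adjusted p = 1e-05), and its highest WT-D library came close to the cryptochrome mutant (adjusted p = 0.061 against WT-D). The paralogs AT4G08400 and AT4G08410 had nearly equal values in every library, from 9.73 to 11.0 RPKM in cry1 cry2-BL, 18.8 to 19.6 in WT-BL, 1.70 to 1.84 in tir1 afb123-D and 4.49 to 5.93 in WT-D. Their transcripts are 74.3% identical, and how the authors assigned reads that fit both is not given in the sources used here, so the pair may share reads. The same limit holds for EXT6, whose transcript is 74.4% identical to that of AT5G06630 and 71.4% to that of AT4G08410. AT5G06630, the lowest extensin in WT-BL, had 7.16 and 8.20 RPKM in cry1 cry2-BL, 17.1 and 16.8 RPKM in WT-BL, 2.98 and 2.78 RPKM in tir1 afb123-D, and 6.25 and 7.53 RPKM in WT-D, so the cryptochrome mutant overlapped the dark wild type.

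The 4 class III peroxidase genes, whose products cross-link wall proteins, moved the same way. Each was lower in cry1 cry2-BL than in WT-BL, and 2 were higher than in WT-D. RHS19, a peroxidase gene known for its expression in root hairs, had 11.8 and 11.5 RPKM in cry1 cry2-BL, 20.3 and 19.1 RPKM in WT-BL, 2.30 and 1.89 RPKM in tir1 afb123-D, and 8.04 and 9.37 RPKM in WT-D (log2 fold change -0.71 ± 0.0961 against WT-BL, limma adjusted p = 4.8e-05). AT3G49960 fell furthest, with 4.48 and 4.52 RPKM in cry1 cry2-BL against 14.2 and 13.0 RPKM in WT-BL (-1.41 ± 0.109, limma adjusted p = 4.4e-07). It had 1.01 and 0.76 RPKM in tir1 afb123-D and 3.76 and 4.50 RPKM in WT-D, and its cryptochrome mutant value did not pass the test against WT-D (0.10, adjusted p = 0.48). The transcripts of AT3G49960 and RHS19 are 70.9% identical, so these genes may share reads too. MRH6, named for a mutant with misshapen root hairs, was lower still in level, with 2.66 and 3.00 RPKM in cry1 cry2-BL, 5.76 and 6.09 RPKM in WT-BL, 0.213 and 0.443 RPKM in tir1 afb123-D, and 2.39 and 1.93 RPKM in WT-D (-0.86 ± 0.124 against WT-BL, limma adjusted p = 8.4e-05).

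Summed over the 5 extensins, the level was 68.8 and 70.4 RPKM in cry1 cry2-BL, 146.5 and 137.3 RPKM in WT-BL, 11.9 and 11.7 RPKM in tir1 afb123-D, and 36.8 and 50.7 RPKM in WT-D. The WT-D libraries differed here: library 2 was above library 1 in all 5 extensins, by a median of 0.34 log2 units, and in all 4 peroxidases, by a median of 0.20, while over all tested genes the median difference was 0.00. The same library was higher for 22 of 27 tested genes of a root hair list. Without WT-D library 2 the choice gave 68 genes, of which 59 were members. With WT-D library 1 alone, AT5G06630, AT4G08410 and AT4G26010 missed the receptor limit, since their RPKM + 1 in tir1 afb123-D lay less than 2-fold below it. The other extensins and peroxidases still met both limits. The part of this gap in the comparisons of cry1 cry2-BL with WT-D was not tested for these roles.

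A list of 33 genes known from root hairs gave 27 tested genes, of which RHS19 and EXT6 are members. In cry1 cry2-BL against WT-BL 16 of the other 25 were lower and 5 higher (26.3% and 41.6% of all tested genes), with a median log2 fold change of -0.34, against 0.12 for all tested genes. In WT-BL against WT-D 16 of the 25 were higher, where 34.0% of all tested genes were, and 3 lower (median 0.44). In tir1 afb123-D against WT-D 23 were lower, where 51.4% of all tested genes were, and 1 higher (median -1.56). Summed over the list with its members, the level was 278.7 and 266.7 RPKM in cry1 cry2-BL, 379.7 and 345.1 RPKM in WT-BL, 95.9 and 90.7 RPKM in tir1 afb123-D, and 253.2 and 287.2 RPKM in WT-D, and no gene of the list was at 0 in all libraries. The part of a change in root hair cells was not tested.

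The other 9 genes grouped as structural wall proteins are annotated as glycine-rich, hydroxyproline-rich or of the Pollen Ole e 1 allergen and extensin family. All 9 were lower in cry1 cry2-BL than in WT-BL, where 85.9% of all members were. AT1G67870, a glycine-rich protein, had the largest fall of any member, with 24.2 RPKM in both cry1 cry2-BL libraries against 421 and 407 RPKM in WT-BL (log2 fold change -4.04 ± 0.0608, limma adjusted p = 1.7e-12). It had 53.6 and 59.3 RPKM in tir1 afb123-D and 153 and 143 RPKM in WT-D, so its level in the cryptochrome mutant lay under that of the dark wild type (-2.56, limma adjusted p = 3.2e-10) and under both receptor mutant libraries. With all 8 libraries in the fit, no other member was called below WT-D in cry1 cry2-BL. GRP9, a glycine-rich protein, was at 194 and 188 RPKM in cry1 cry2-BL, 392 and 349 RPKM in WT-BL, 31.0 and 32.1 RPKM in tir1 afb123-D, and 141 and 111 RPKM in WT-D. The mutant lay midway, below WT-BL (-0.95 ± 0.094, limma adjusted p = 3.7e-06) and above WT-D (0.61, adjusted p = 0.00037). AT4G38080, a hydroxyproline-rich glycoprotein gene, kept more of its level, with 202 and 203 RPKM in cry1 cry2-BL, 294 and 291 RPKM in WT-BL, 15.9 and 14.7 RPKM in tir1 afb123-D, and 111 and 110 RPKM in WT-D. AT5G09480, of the same class, had 34.8 and 37.1 RPKM in cry1 cry2-BL, 64.1 and 59.996 RPKM in WT-BL, 2.66 and 2.28 RPKM in tir1 afb123-D, and 5.11 and 7.29 RPKM in WT-D. AT2G22510 and AT1G55990 had the strongest falls of these 9 genes in the receptor mutant, with log2 ratios of -3.23 and -3.08 by the choice.

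Among 4 further wall genes, EXPB3 went against the rest. EXPB3 encodes a beta-expansin, a protein that loosens walls, and had 68.2 and 69.2 RPKM in cry1 cry2-BL, 49.0 and 51.7 RPKM in WT-BL, 7.24 and 8.27 RPKM in tir1 afb123-D, and 19.2 and 18.6 RPKM in WT-D. It was higher in the cryptochrome mutant than in WT-BL (0.44 ± 0.0671, limma adjusted p = 0.00013), the largest such rise of a member. The SKU5-similar genes sks15 and sks16, relatives of a gene for a wall-bound protein in directed root growth, were lower than in WT-BL (-0.85 and -0.76, limma adjusted p = 5.3e-05 and 0.0011). A pair of CASP-like membrane protein genes changed little in the cryptochrome mutant. AT4G20390 had 47.0 and 48.5 RPKM in cry1 cry2-BL, 63.2 and 59.0 RPKM in WT-BL, 3.72 and 3.64 RPKM in tir1 afb123-D, and 9.49 and 10.9 RPKM in WT-D, and was lower than in WT-BL (-0.35, limma adjusted p = 0.0013). AT3G06390 did not pass against WT-BL (-0.21, limma adjusted p = 0.074), but did without either tir1 afb123-D library (adjusted p = 0.030 in both cases).

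**Figure D3:**
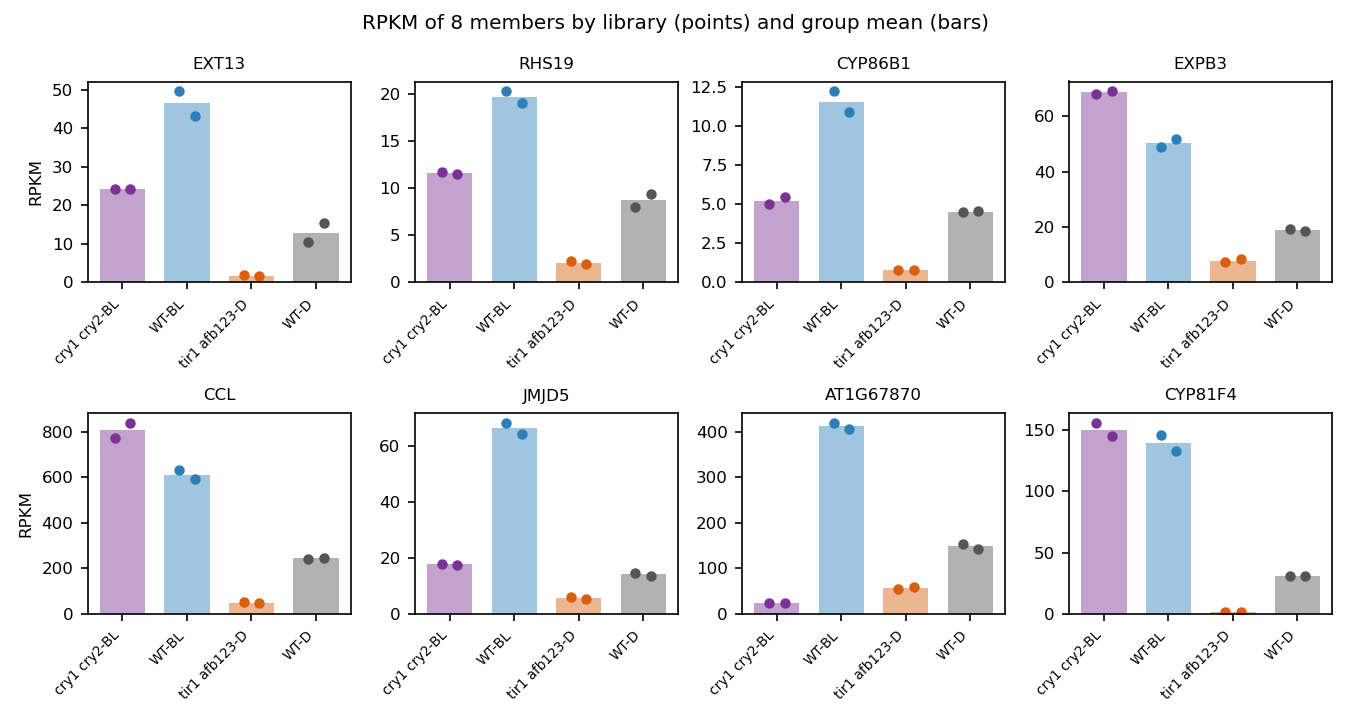
RPKM of 8 members in the 4 groups; points are the 2 libraries of a group and bars their mean, on a linear axis from 0 that differs between panels. EXT13, RHS19 and CYP86B1 lie lower in cry1 cry2-BL than in WT-BL, EXPB3 and CCL lie higher, CYP81F4 lies close to it, and AT1G67870 is lowest in cry1 cry2-BL.

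Suberin, wax and lipid genes were lower in the cryptochrome mutant, as most members were. All 6 were lower in cry1 cry2-BL than in WT-BL (85.9% of all members were), between -1.13 and -0.61 on the log2 scale. Against WT-D, 3 of them were higher. CYP86B1, a cytochrome P450 that oxidises very long chain fatty acids of suberin, had 4.98 and 5.43 RPKM in cry1 cry2-BL, 12.2 and 10.9 RPKM in WT-BL, 0.81 and 0.755 RPKM in tir1 afb123-D, and 4.48 and 4.53 RPKM in WT-D (-1.01 ± 0.0959, limma adjusted p = 2.5e-06). FAR4, a fatty acyl reductase that makes primary alcohols of suberin, had 4.22 and 4.35 RPKM in cry1 cry2-BL, 9.24 and 8.54 RPKM in WT-BL, 0.706 and 0.163 RPKM in tir1 afb123-D, and 3.48 and 2.81 RPKM in WT-D (-0.90 ± 0.16, limma adjusted p = 0.0004). Both thus lay near their dark level in the cryptochrome mutant, where neither passed the test against WT-D. AT1G74460, a GDSL-type lipase, was the highest of the class in WT-BL, at 17.7 and 16.0 RPKM in cry1 cry2-BL, 36.2 and 32.7 RPKM in WT-BL, 1.09 and 1.17 RPKM in tir1 afb123-D, and 8.16 and 9.95 RPKM in WT-D.

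Other genes of the endodermis, the root layer that lays down Casparian strips and suberin, split by role. In a list of 22 such genes 19 were tested. The 11 suberin and fatty acid genes were higher in WT-BL than in WT-D in 8 cases and lower in 2. CYP86B1 and FAR4 are counted in the 11, but their rise in WT-BL and fall in tir1 afb123-D follow from the choice of members. The 8 Casparian strip genes (CASP1 to CASP5, ESB1, MYB36 and PER64) were all lower in WT-BL than in WT-D (median -1.96). Of all tested genes 34.0% were higher and 40.4% lower in that contrast. Against WT-BL, cry1 cry2-BL was lower for 9 of the 11 (26.3% of all tested genes were) and higher for all 8 Casparian strip genes (41.6% of all tested genes were). Without the receptors, 8 of the 11 and all 8 Casparian strip genes were lower in tir1 afb123-D than in WT-D, where 51.4% of all tested genes were. The division of the list was made after its values were seen. Summed over the list, the level was 919.7 and 845.8 RPKM in cry1 cry2-BL, 491.2 and 473.8 RPKM in WT-BL, 458.1 and 447.6 RPKM in tir1 afb123-D, and 954.4 and 957.3 RPKM in WT-D, with no gene at 0 in all libraries. The part of a change in endodermal cells was not tested.

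Lipid transfer type proteins held the most abundant member. AT2G45180 had 1510 and 1245 RPKM in cry1 cry2-BL, 3471 and 2934 RPKM in WT-BL, 665 and 680 RPKM in tir1 afb123-D, and 1698 and 1466 RPKM in WT-D. In the cryptochrome mutant it fell to about the dark level (-1.22 ± 0.112 against WT-BL, limma adjusted p = 1.9e-06; -0.20 against WT-D, adjusted p = 0.17). AT1G48750 was among the 3 members above WT-BL, with 79.9 and 83.9 RPKM in cry1 cry2-BL, 66.9 and 70.4 RPKM in WT-BL, 9.62 and 11.7 RPKM in tir1 afb123-D, and 36.3 and 29.9 RPKM in WT-D. That rise was small (0.25 ± 0.097, limma adjusted p = 0.039). It was not called when any 1 library of either group was left out (adjusted p = 0.062 to 0.16) or under upper-quartile scaling (0.17, adjusted p = 0.16). The gene lies wholly within delta-ADR on the opposite strand, and since the use of strand in counting is not given in the sources used here, the pair may share reads.

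Specialised metabolism held the member with the largest response to light. TPS-CIN, the synthase of the monoterpene 1,8-cineole, is a tandem pair of genes, AT3G25820 and AT3G25830, whose RefSeq transcripts are 100% identical, so reads of the pair may not be told apart; both genes are counted among the members. AT3G25820 had 45.9 and 42.9 RPKM in cry1 cry2-BL, 82.9 and 80.7 RPKM in WT-BL, 0.0922 and 0.0957 RPKM in tir1 afb123-D, and 3.62 and 4.06 RPKM in WT-D, and its copy AT3G25830 had 46.8 and 43.8 RPKM in cry1 cry2-BL, 84.0 and 82.3 RPKM in WT-BL, 0.209 and 0.0964 RPKM in tir1 afb123-D, and 3.89 and 4.27 RPKM in WT-D. The cryptochrome mutant was lower than WT-BL (-0.87 ± 0.0764, limma adjusted p = 1.4e-06) but stood far above WT-D (3.23, adjusted p = 3.2e-10), which makes 78.9% of the wild type's log2 rise. CYP81F4, a cytochrome P450 of indole glucosinolate synthesis, had 156 and 145 RPKM in cry1 cry2-BL, 146 and 133 RPKM in WT-BL, 1.44 and 1.12 RPKM in tir1 afb123-D, and 30.7 and 31.1 RPKM in WT-D. In the cryptochrome mutant it was above WT-D (2.25, limma adjusted p = 3.5e-09) and did not pass against WT-BL (0.11 ± 0.0769, adjusted p = 0.22). AT4G37409, an uncharacterised gene that covers CYP81F4 on the opposite strand over 2140 bases, had a similar profile, with 127 and 113 RPKM in cry1 cry2-BL, 121 and 106 RPKM in WT-BL, 1.19 and 1.17 RPKM in tir1 afb123-D, and 24.0 and 26.9 RPKM in WT-D. Whether strand was used in counting is not given in the sources used here, so these 2 members may be 1 signal.

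AT5G37990, a methyltransferase gene, resembled CYP81F4, with 35.9 and 35.6 RPKM in cry1 cry2-BL, 45.9 and 39.5 RPKM in WT-BL, 0.161 and 0.368 RPKM in tir1 afb123-D, and 6.84 and 5.26 RPKM in WT-D. Its value in the cryptochrome mutant did not pass against WT-BL (-0.25, limma adjusted p = 0.088; 0.04992 without WT-D library 1 and 0.04907 without library 2) and was above WT-D (2.39, adjusted p = 5.8e-08). ACL, annotated as an acetone-cyanohydrin lyase, did the opposite, with 19.4 and 17.9 RPKM in cry1 cry2-BL, 98.2 and 90.5 RPKM in WT-BL, 9.26 and 9.08 RPKM in tir1 afb123-D, and 19.7 and 20.03 RPKM in WT-D. It was lower than in WT-BL (-2.28 ± 0.0648, limma adjusted p = 1.2e-10) with no overlap, and was not called against WT-D (-0.09, adjusted p = 0.30).

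The transporters differed in the same manner. AMT1;2, an ammonium transporter of the root, had 19.6 and 17.7 RPKM in cry1 cry2-BL, 19.1 and 21.4 RPKM in WT-BL, 0.825 and 1.01 RPKM in tir1 afb123-D, and 5.01 and 5.95 RPKM in WT-D. Its cry1 cry2-BL and WT-BL libraries overlapped (-0.11 ± 0.103, limma adjusted p = 0.36). UMAMIT27, of a family of amino acid exporters, was lower than in WT-BL (-1.10, limma adjusted p = 6.6e-06) and was not called against WT-D.

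The 4 clock and light genes differed among themselves. CCL, whose short-lived transcript is under clock control, had 773 and 842 RPKM in cry1 cry2-BL, 633 and 592 RPKM in WT-BL, 53.2 and 45.2 RPKM in tir1 afb123-D, and 240 and 247 RPKM in WT-D. It was higher in the cryptochrome mutant than in WT-BL (0.40 ± 0.0771, limma adjusted p = 0.00077). JMJD5, a JmjC-domain protein that takes part in the circadian clock, had 17.9 and 17.4 RPKM in cry1 cry2-BL, 68.4 and 64.3 RPKM in WT-BL, 6.07 and 5.35 RPKM in tir1 afb123-D, and 14.7 and 13.7 RPKM in WT-D. It fell almost to the dark level (-1.85 ± 0.0738, limma adjusted p = 1.5e-09), although it remained above it (0.30, adjusted p = 0.0078). COL9, a CONSTANS-like protein that delays flowering, lay between, with 25.9 and 27.5 RPKM in cry1 cry2-BL, 48.0 and 49.7 RPKM in WT-BL, 6.95 and 6.07 RPKM in tir1 afb123-D, and 18.3 and 18.7 RPKM in WT-D. UVR3, the photolyase that repairs a class of ultraviolet damage with the help of light, had 11.8 and 10.9 RPKM in cry1 cry2-BL and 12.9 and 10.7 RPKM in WT-BL, which overlapped (-0.04, limma adjusted p = 0.80), with 2.04 and 1.19 RPKM in tir1 afb123-D and 4.92 and 5.06 RPKM in WT-D. The labels give no hour of harvest, so the part of the clock in these values was not tested.

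All 4 photorespiration and redox genes were lower in cry1 cry2-BL than in WT-BL (85.9% of all members were), and 2 of them were above WT-D. AGT, the peroxisomal aminotransferase of photorespiration, had 460 and 480 RPKM in cry1 cry2-BL, 781 and 771 RPKM in WT-BL, 149 and 154 RPKM in tir1 afb123-D, and 329 and 326 RPKM in WT-D (-0.72 ± 0.053 against WT-BL, limma adjusted p = 2.8e-07). CCS, the copper chaperone of superoxide dismutases, and WCRKC1, a thioredoxin-like protein, were lower than in WT-BL too, with log2 fold changes of -0.86 and -0.97. AT1G06830, of the glutaredoxin family, had 6.69 and 5.02 RPKM in cry1 cry2-BL, 21.5 and 18.2 RPKM in WT-BL, 1.07 and 0.928 RPKM in tir1 afb123-D, and 8.92 and 5.38 RPKM in WT-D. It had the largest fall of the 4 (-1.61 ± 0.183, limma adjusted p = 1.2e-05) and overlapped the dark wild type. In a photorespiration list of 9 tested genes all 9 were higher in WT-BL than in WT-D (34.0% of all tested genes were). All 9 were lower in cry1 cry2-BL than in WT-BL (26.3% of all tested genes were). In tir1 afb123-D, however, 7 were higher than in WT-D (27.5% of all tested genes were) and 1, AGT, was lower. AGT is a member, so its rise in WT-BL and its fall in tir1 afb123-D follow from the choice. AT4G00880, a SAUR-like gene of the family of early auxin response genes, was the sole member of the auxin response families, at 11.1 and 12.3 RPKM in cry1 cry2-BL, 27.9 and 25.6 RPKM in WT-BL, 1.40 and 1.56 RPKM in tir1 afb123-D, and 9.99 and 8.11 RPKM in WT-D. It was lower than in WT-BL (-1.13 ± 0.102, limma adjusted p = 1.7e-06). The Aux/IAA, GH3 and SAUR lists held no member. Of 26 tested Aux/IAA genes 25 were lower in tir1 afb123-D than in WT-D (51.4% of all tested genes were), while 20 were lower in WT-BL than in WT-D (40.4% of all tested genes were) and 1 was higher.

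Of the 18 members outside these roles, 16 were lower in cry1 cry2-BL than in WT-BL, where 85.9% of all members were. AT5G23240, a DnaJ-type chaperone, had 2.60 and 2.96 RPKM in cry1 cry2-BL, 36.6 and 35.2 RPKM in WT-BL, 0.553 and 0.465 RPKM in tir1 afb123-D, and 2.42 and 2.89 RPKM in WT-D (-3.29 ± 0.102, limma adjusted p = 2.2e-10). AT3G22060, related to receptor-like kinases, had 4.07 and 3.24 RPKM in cry1 cry2-BL, 30.01 and 28.5 RPKM in WT-BL, 0.848 and 1.02 RPKM in tir1 afb123-D, and 3.89 and 2.98 RPKM in WT-D (-2.71 ± 0.123, limma adjusted p = 4.6e-09). Both overlapped the dark wild type in the cryptochrome mutant. AT1G64370, a filaggrin-like protein, kept most of its rise, with 242 and 272 RPKM in cry1 cry2-BL, 313 and 285 RPKM in WT-BL, 33.5 and 31.3 RPKM in tir1 afb123-D, and 133 and 124 RPKM in WT-D; its small fall (-0.22 ± 0.0713, limma adjusted p = 0.018) was not called without cry1 cry2-BL library 1 (-0.13, adjusted p = 0.16) or without WT-BL library 1 (-0.15, adjusted p = 0.15). AT3G51642 had libraries that disagreed, with 28.2 and 16.0 RPKM in WT-BL and 0.813 and 0 RPKM in tir1 afb123-D.

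**Figure D4:**
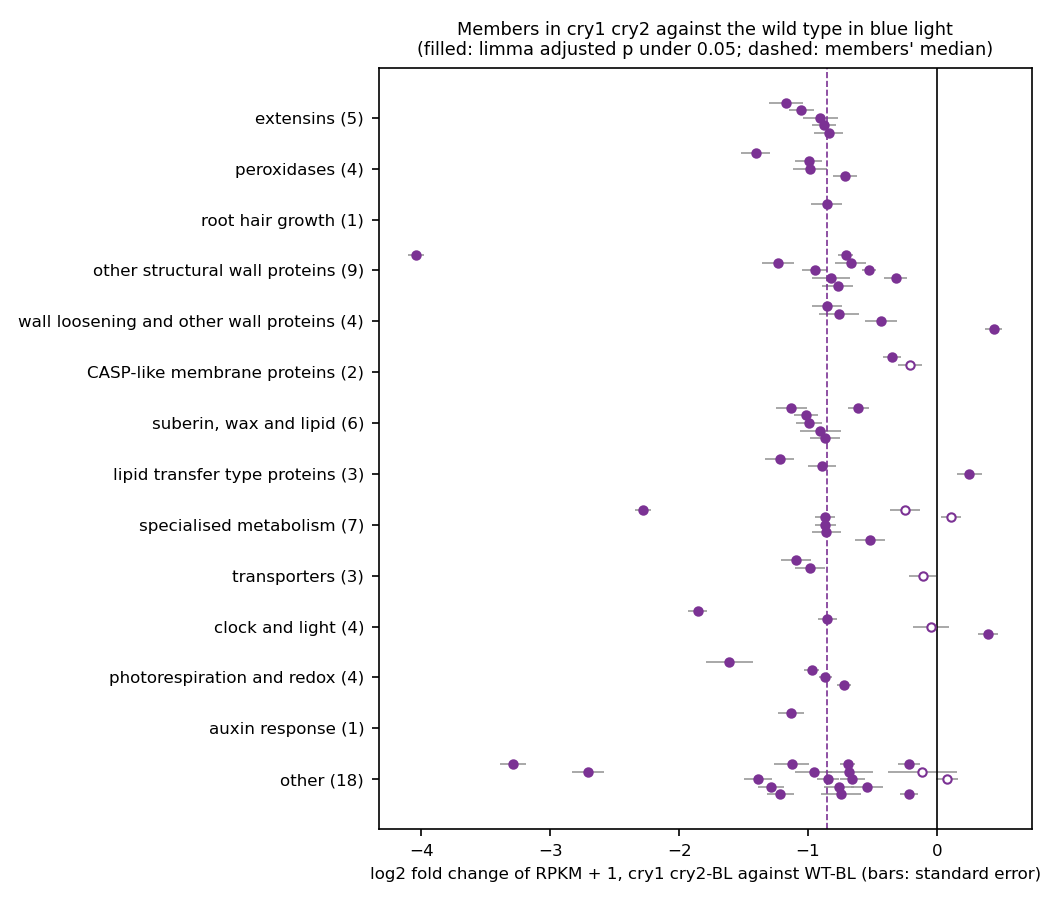
Log2 fold change of RPKM + 1 in cry1 cry2-BL against WT-BL for each of the 71 members by role, with its standard error; filled points passed the limma test at an adjusted p under 0.05, and the dashed line is the members' median of -0.86. Extensins, peroxidases, suberin genes and redox genes all lie left of 0, while EXPB3, AT1G48750 and CCL lie right of it as filled points.

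The stretch before the start of transcription was read for all members from RefSeq (TAIR10.1), in windows of 250 bases before and 50 after the annotated start. Both strands were searched for motifs of light, auxin and clock control, for a root hair element and for GGCCCA, a site II type element. Shown are the 250 bases before the start of 6 members that carry a motif or a finding above: MRH6, with the root hair element (RHE) and TGTCTC; CCL and COL9, with the evening element core AATATCT; EXPB3, with TGTCGG; AT1G67870, with the G-box CACGTG; and CYP81F4, with none. Capitals mark the matches, which in CCL include GATAAG on the opposite strand.
MRH6: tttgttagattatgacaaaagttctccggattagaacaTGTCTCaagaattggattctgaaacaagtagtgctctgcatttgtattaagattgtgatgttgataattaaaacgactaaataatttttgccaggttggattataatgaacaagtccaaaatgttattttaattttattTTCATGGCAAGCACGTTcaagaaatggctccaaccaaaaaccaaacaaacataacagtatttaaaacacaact
CCL: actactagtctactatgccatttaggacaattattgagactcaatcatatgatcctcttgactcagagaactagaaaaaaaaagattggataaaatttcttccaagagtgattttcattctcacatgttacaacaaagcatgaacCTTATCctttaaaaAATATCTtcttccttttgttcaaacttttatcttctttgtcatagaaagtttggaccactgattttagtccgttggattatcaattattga
COL9: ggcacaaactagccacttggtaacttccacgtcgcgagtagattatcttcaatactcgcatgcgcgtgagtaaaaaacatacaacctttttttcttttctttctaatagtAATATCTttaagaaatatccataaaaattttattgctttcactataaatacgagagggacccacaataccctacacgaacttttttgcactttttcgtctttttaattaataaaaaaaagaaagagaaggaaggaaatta
EXPB3: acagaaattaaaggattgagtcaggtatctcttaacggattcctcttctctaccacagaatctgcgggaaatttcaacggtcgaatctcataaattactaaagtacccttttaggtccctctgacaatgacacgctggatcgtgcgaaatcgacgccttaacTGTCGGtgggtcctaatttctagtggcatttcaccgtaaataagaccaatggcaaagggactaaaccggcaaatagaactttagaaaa
AT1G67870: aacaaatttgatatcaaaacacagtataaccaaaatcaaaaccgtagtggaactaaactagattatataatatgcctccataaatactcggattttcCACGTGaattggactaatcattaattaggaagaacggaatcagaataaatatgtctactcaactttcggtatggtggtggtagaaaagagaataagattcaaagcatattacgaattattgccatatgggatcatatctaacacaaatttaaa
CYP81F4: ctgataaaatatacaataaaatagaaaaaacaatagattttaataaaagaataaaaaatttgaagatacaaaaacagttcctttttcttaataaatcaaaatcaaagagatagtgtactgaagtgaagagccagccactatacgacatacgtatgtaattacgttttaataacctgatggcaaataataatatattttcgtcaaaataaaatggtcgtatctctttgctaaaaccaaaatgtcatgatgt
These stretches lie at chr2:1131870-1132119 on the plus strand (MRH6), chr3:9827432-9827681 on the plus strand (CCL), chr3:2441315-2441564 on the plus strand (COL9), chr4:14002125-14002374 on the minus strand (EXPB3), chr1:25451052-25451301 on the minus strand (AT1G67870) and chr4:17590522-17590771 on the plus strand (CYP81F4), all upstream of the gene named.

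The auxin response elements TGTCTC and TGTCGG were in 5 (7.04%) and 2 (2.82%) of 71 windows, against 14.2% and 5.12% of all 26709 windows. CACGTG was in 3 (4.23%, against 7.79%), GATAAG in 11 (15.5%, against 14.6%) and the site II type element GGCCCA in 1 (1.41%, against 15.7%). The AATATCT core was in 10 windows (14.1%, against 11.6%), among them CCL, JMJD5 and COL9 of the 4 clock and light members. The root hair element was in 1 window, that of MRH6 (1.41%, against 0.876%), and in none of the extensin and peroxidase members. Of 26 root hair list genes that are not members, 9 held it (34.6%). That list and the element were both picked for root hairs, so the share in the list is no background for the members. The motifs do not overlap one another in the stretches shown. A match is a description of these letters and no test of a factor.

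The members were spread over all 5 chromosomes, with 13, 15, 14, 13 and 16 on chromosomes 1 to 5. Only 2 pairs were neighbours, the TPS-CIN pair and CYP81F4 with AT4G37409. In all, 13 members overlapped another measured gene, among them the peroxidase gene AT4G26010, over 1304 bases. Without the 15 members that overlap a measured gene or have an identical copy, 49 of 56 were lower in cry1 cry2-BL than in WT-BL and 2 were higher, a count added after the values were seen.

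**Figure D5:**
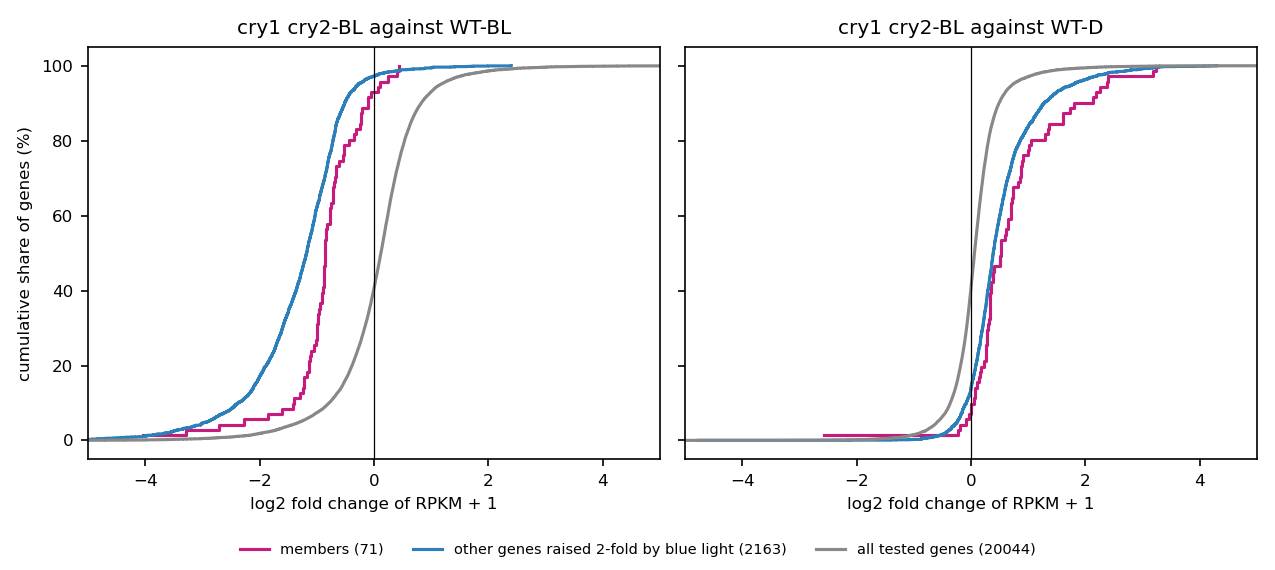
Cumulative share of genes (y axis, percent) up to each log2 fold change of RPKM + 1 (x axis, shown from -5 to 5) in cry1 cry2-BL against WT-BL (left) and against WT-D (right), for the 71 members, 2163 other tested genes raised at least 2-fold by blue light, and all 20044 tested genes. Against WT-BL the members' curve lies between the other blue light genes (medians -0.86 and -1.18) and all genes (0.12); against WT-D it lies right of both, apart from AT1G67870 at -2.56.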

How the data were processed

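Per the file headers, the authors deposited RPKM for each gene model. Their aligner was Bowtie2 2.2.2 with the TAIR10 build, per the submitters' processing notes. How reads were assigned to genes, and whether strand was used, is not given in the sources used here. RefSeq's TAIR10.1 annotation gave symbols for 26719 of 27416 models and the promoter sequences. Reads behind each value were recovered with RefSeq transcript lengths, whole to within 0.001 for all 24717 models above 0, and served to give depth. The intervals that such counts allow cover counting error only, since the reads carry no molecular identifiers.

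Values of log2(RPKM + 1), which understate folds of low genes, were fitted with limma 3.58.1 (R 4.3.3; eBayes, trend on the mean level). The fit took all 8 libraries in 4 groups and the 20044 genes that reached 1 RPKM in 2 or more libraries (4 residual degrees of freedom), with Benjamini-Hochberg adjustment over all of them at 0.05. The fit was tested on simulated data. Contrasts used in the choice of members are described without a test. Tables were made in Python 3.11.15 with pandas 2.3.3 and numpy 2.4.6, and figures with matplotlib 3.10.9.

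Named were the 8 members highest in WT-BL, the 6 with the largest sum of both changes, the 5 lowest and 5 highest in cry1 cry2-BL against WT-BL, members of 40 gene lists, those nearest a limit, neighbours and families, and the mutated genes; further members were named after their values were seen, to complete a role. The members, lists, role groups and the RHE motif were chosen with earlier results of these data known. Alternatives varied the pseudocount, filter, scaling, fit, replicate block, limits and libraries.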

Additional observations from a re-analysis of the deposited data

How the results depend on the processing

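The choice of members gave 71 genes as described, 100 with a pseudocount of 0.5 RPKM and 190 with 0.1 RPKM, both holding all 71. A 1.5-fold limit gave 289 and a 3-fold limit 9. Upper-quartile scaling gave 71, of which 62 were the same genes, and means of log2 values gave the same 71. Leaving out each library of the 3 groups in turn gave 68 to 77 genes; without WT-D library 2, 59 of the 71 were among 68. Of the members, 58 to 62 were below WT-BL in cry1 cry2-BL and 2 to 3 above when single libraries were left out, 39 to 49 were above WT-D and 1 to 2 below it. A lone library left in a group was assumed to vary like the other groups. With the other settings 59 to 63 were below WT-BL and 42 to 48 above WT-D.

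Same-numbered libraries deviated from their group means with correlations of -0.12 to 0.14. Such correlations cannot show whether these libraries shared a batch, and the labels do not tell. With a replicate block the counts were again 61 below and 3 above WT-BL, and 47 above and 1 below WT-D. Of the 71 members, 59 kept their direction and call against WT-BL under all 16 alternatives to the fit, and sks16 did under the 15 that tested it, since it was not tested with a filter of 5 RPKM. AT1G48750 was not called under 8 of them (adjusted p = 0.051 to 0.16), and AT1G64370 was not called without a mean-variance trend or without library 1 of cry1 cry2-BL or WT-BL. AT5G37990 and AT3G06390 were called lower under 4 each, and AT1G73620, AT2G43670, AT2G47540 and MC3 lost their call under 1 to 5. When single libraries were left out, AT3G51642 lay between -0.50 and 0.28 and UVR3 between -0.17 and 0.081. AT4G37409, at 0.08, was -0.0056 with upper-quartile scaling and lay between -0.021 and 0.18 when single libraries were left out, below 0 without cry1 cry2-BL library 1 or WT-BL library 2, with no call where it was below 0. The causes were not tested. Count tests with edgeR and DESeq2, planned for reads recovered from the RPKM values, were not run. Depth limits the receptor mutant's values: 16 members had fewer than 10 reads in 1 of its libraries.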
